A study of Caenorhabditis elegans with 16 samples.

Results

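The alpha subunits of the 20S proteasome, the core particle of the protease that degrades ubiquitin-tagged proteins, were examined in *Caenorhabditis elegans*. Their genes, *pas-1* to *pas-7*, were taken by name from the deposited counts, and all 7 were found among the 19122 genes listed. Whole animals in the last larval stage, L4, gave 16 RNA sequencing samples, 4 in each of 4 groups. The transgenic groups expressed SKN-1t, a form of the transcription factor SKN-1 without its N-terminus, that differed at 4 asparagines which are N-glycosylation sites in the full-length protein. SKN-1t[DNDD] animals (mgTi41) carried aspartate at 3 of these sites, SKN-1t[NDNN] animals (mgTi42) carried it at 1, and SKN-1t[NNNN] animals (mgTi21) kept asparagine at all 4. Each was a single-copy transgene with HA and GFP tags under the *rpl-28* promoter, which is active in all tissues, in a strain whose genotype lists unc-119(ed3), and the endogenous *skn-1* gene was still present. The wild type was the N2 strain without a transgene. Each form of SKN-1t was represented by 1 strain, so effects of the form and of other differences between strains cannot be told apart. The comparisons ask how RNA of the alpha subunits depends on the Asn to Asp changes.

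The alpha subunits form the outer rings of the barrel-shaped core, and the beta subunits, some of which are the proteases, form its inner rings. The N-terminal tails of the alpha subunits close the channel into the core, and the 19S regulatory particle docks on their surface to open it. Proteasome genes are targets of SKN-1A, the isoform of SKN-1 that resembles mammalian Nrf1. SKN-1A is glycosylated in the endoplasmic reticulum and then deglycosylated by PNG-1, which turns glycosylated asparagines into aspartates, an alteration called sequence editing. SKN-1C, a cytosolic isoform, does not undergo it.

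Each gene was annotated with a single transcript in genome build WBcel235. On chromosome V lay *pas-1* (WBGene00003922, 14421566 to 14422618, minus strand, 3 exons), *pas-2* (WBGene00003923, 10770368 to 10771351, plus strand, 4 exons) and *pas-6* (WBGene00003927, 5583161 to 5584343, minus strand, 5 exons). On chromosome I lay *pas-3* (WBGene00003924, 5105110 to 5106048, minus strand, 2 exons), *pas-4* (WBGene00003925, 8727218 to 8728487, minus strand, 4 exons) and *pas-5* (WBGene00003926, 10566350 to 10567300, plus strand, 3 exons). On chromosome II lay *pas-7* (WBGene00003928, 10098782 to 10099854, minus strand, 3 exons), the only one of the 7 that overlapped another annotated gene, by 4 bases on the opposite strand with *lact-2*. The counting strand is not given in the sources used here, so reads in those bases cannot be assigned with certainty.

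Counted reads ranged from 23806929 to 30457636 per sample, and the replicates varied more than counting alone gives. Chi-square per degree of freedom ran from 15.76 to 154.4 for the 24 replicate pairs of the same group. Reads of *skn-1* come from the endogenous gene and the transgene together, and are given in CPM, counts scaled to library size by the TMM method. They ranged from 206 to 256 CPM in SKN-1t[DNDD] animals and from 257 to 320 CPM in SKN-1t[NDNN] animals. In SKN-1t[NNNN] animals the range was 269 to 335 CPM, and in the wild type 112 to 133 CPM. Every transgenic sample was thus above every wild type sample. Every SKN-1t[DNDD] sample was below every SKN-1t[NDNN] and SKN-1t[NNNN] sample. The part of these *skn-1* levels in the results on the alpha subunits was not tested. The study's methods call its biological replicates independent populations of animals without naming these samples, and the labels do not say how the replicates were separated, so p-values measure the spread between these samples, which may be technical in part. Markers of tissues were summed over 5 genes each, and no marker was at 0 in all samples of a group. Summed germline markers were higher in replicates 3 and 4 than in replicates 1 and 2 of every group, with 80.3 to 722 CPM in SKN-1t[DNDD] animals, 64.5 to 293 CPM in SKN-1t[NDNN] animals, 82.2 to 575 CPM in SKN-1t[NNNN] animals and 44.2 to 140 CPM in the wild type. Summed intestinal markers reached 3180, 3440 and 3800 CPM in the SKN-1t[DNDD], SKN-1t[NDNN] and SKN-1t[NNNN] strains, below the lowest wild type value of 4790 CPM. Summed muscle markers ran from 3360 to 4610 CPM in SKN-1t[DNDD], from 3130 to 4770 CPM in SKN-1t[NDNN] and from 3690 to 4900 CPM in SKN-1t[NNNN] animals, against 2670 to 3280 CPM in the wild type, so that SKN-1t[NDNN] alone overlapped the wild type. Summed oocyte markers ran from 13.9 to 209 CPM in SKN-1t[DNDD], from 7.63 to 40.2 CPM in SKN-1t[NDNN], from 10.5 to 74.5 CPM in SKN-1t[NNNN] animals and from 6.90 to 33.7 CPM in the wild type. Summed sperm markers likewise overlapped between all groups, with their highest value, 133 CPM, in an SKN-1t[DNDD] sample. Summed hypodermal markers ran from 3100 to 4350 CPM in SKN-1t[NDNN] and from 1660 to 3010 CPM in SKN-1t[NNNN] animals, without overlap. They ran from 2520 to 3460 CPM in SKN-1t[DNDD] and from 1010 to 3180 CPM in wild type animals. The part of these tissue markers in the results on the alpha subunits was not tested. In RNA of whole animals, fewer cells of a type and less RNA per cell cannot be told apart.

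RNA of all 7 alpha subunits was highest in SKN-1t[DNDD] animals, intermediate in SKN-1t[NDNN] animals, and near or below the wild type level in SKN-1t[NNNN] animals. Levels are given in CPM scaled over the 16 samples. *pas-5*, whose human counterpart is PSMA5, differed most when SKN-1t[DNDD] or SKN-1t[NDNN] was set against the wild type or SKN-1t[NNNN]. It stood at 938, 1024, 870 and 617 CPM in SKN-1t[DNDD] replicates 1 to 4, at 599, 558, 592 and 517 CPM in SKN-1t[NDNN], at 202, 215, 242 and 207 CPM in SKN-1t[NNNN] and at 269, 269, 236 and 258 CPM in wild type animals. The ranges of SKN-1t[DNDD] and SKN-1t[NDNN] animals lay apart from each other and from those of the other groups, whereas SKN-1t[NNNN] and wild type samples overlapped. The lowest SKN-1t[DNDD] sample was replicate 4.

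*pas-3*, the counterpart of human PSMA4, encodes the subunit whose tail in yeast has a leading part in closing the channel. It stood at 771, 770, 645 and 599.8 CPM in SKN-1t[DNDD], at 515, 491, 457 and 480.4 CPM in SKN-1t[NDNN], at 208, 227, 218 and 220.1 CPM in SKN-1t[NNNN] and at 248, 287, 229.9 and 258 CPM in wild type animals. *pas-2*, the counterpart of PSMA2, stood at 729.9, 756, 649 and 503 CPM in SKN-1t[DNDD], at 542, 504, 528 and 469 CPM in SKN-1t[NDNN], at 212, 232, 249 and 217 CPM in SKN-1t[NNNN] and at 255, 255, 225 and 250.2 CPM in wild type animals. Of the 7 subunits, *pas-2* was the one for which SKN-1t[DNDD] and SKN-1t[NDNN] samples overlapped, because of SKN-1t[DNDD] replicate 4. For *pas-3* the 4 groups were all apart. Each SKN-1t[NNNN] sample was below each wild type sample, as in 21.9% of all genes on this scale.

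*pas-6*, the counterpart of PSMA1, stood at 712, 613, 538 and 533 CPM in SKN-1t[DNDD], at 414, 369.5, 344 and 388 CPM in SKN-1t[NDNN], at 169, 179.9, 173 and 194 CPM in SKN-1t[NNNN] and at 233, 261, 203 and 238 CPM in wild type animals. *pas-7*, the counterpart of PSMA3, stood at 609.5, 587, 502 and 441 CPM in SKN-1t[DNDD], at 431, 403, 392 and 383 CPM in SKN-1t[NDNN], at 166, 181, 178 and 178 CPM in SKN-1t[NNNN] and at 210.3, 219, 187 and 205 CPM in wild type animals. In both genes the 4 groups did not overlap, with SKN-1t[DNDD] highest and SKN-1t[NNNN] lowest. *pas-4*, the counterpart of PSMA7, stood at 585, 521, 430.4 and 426 CPM in SKN-1t[DNDD], at 379, 353, 328 and 334 CPM in SKN-1t[NDNN], at 164, 169, 177 and 179 CPM in SKN-1t[NNNN] and at 210.4, 228, 181 and 217 CPM in wild type animals. *pas-1*, the counterpart of PSMA6, stood at 523, 499.7, 386 and 384 CPM in SKN-1t[DNDD], at 341, 333, 288 and 314 CPM in SKN-1t[NDNN], at 140.0, 156, 146 and 156 CPM in SKN-1t[NNNN] and at 183, 196, 163 and 174 CPM in wild type animals. These 2 genes followed the same order, again without overlap between any pair of groups. On this scale 21.9% of all genes had all SKN-1t[NNNN] samples below all wild type samples. The shares of all genes for the other pairs of groups are given with the comparisons below.

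**Figure D1:**
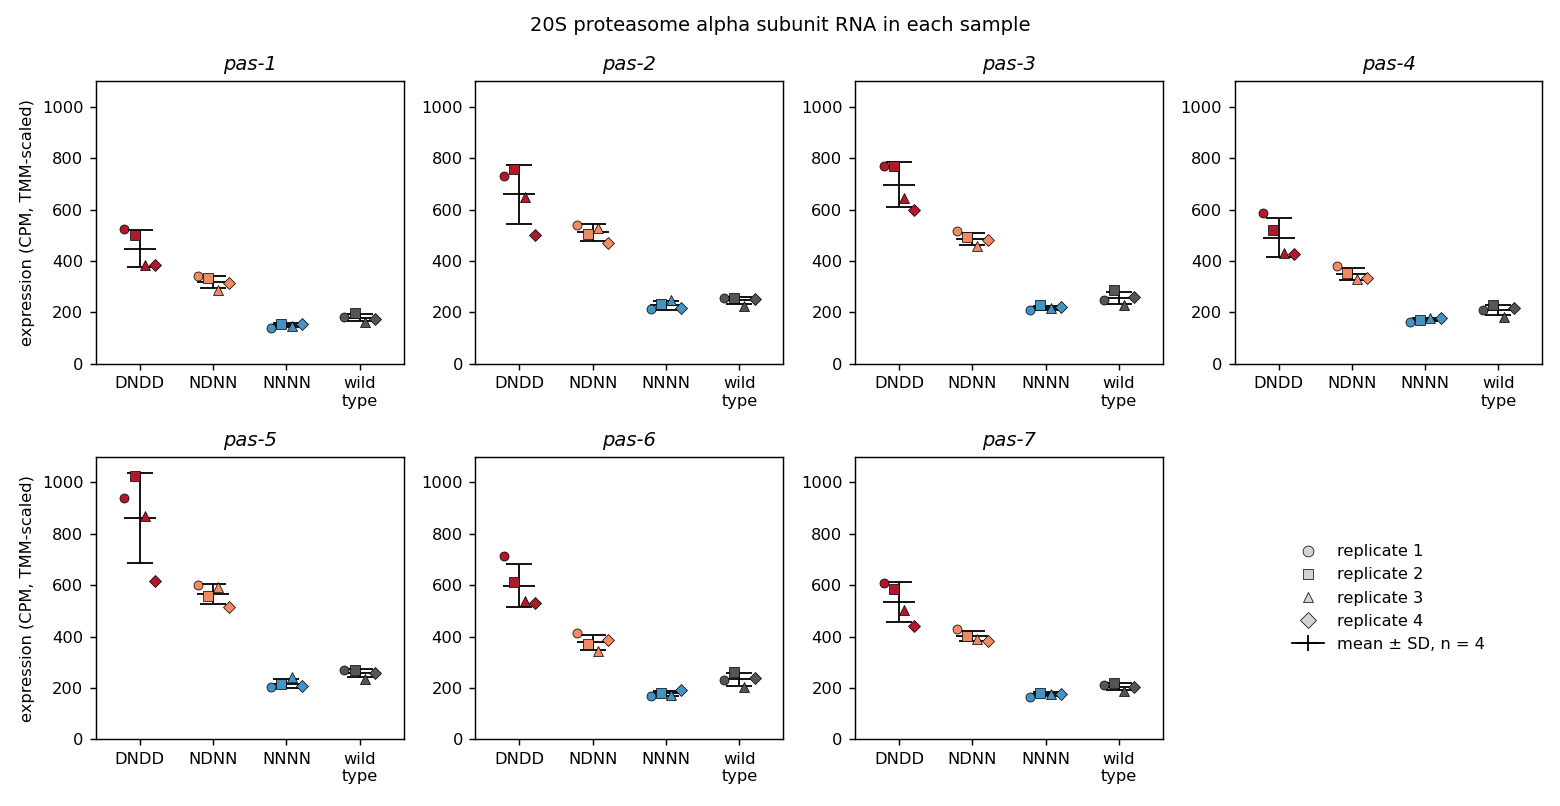
Expression of each alpha subunit gene in CPM (vertical axis) in the 4 samples of SKN-1t[DNDD], SKN-1t[NDNN], SKN-1t[NNNN] and wild type animals, with marker shapes for the replicate numbers and bars for mean ± SD (n = 4). In every panel the SKN-1t[DNDD] mean is the highest, as for *pas-5* at 862 CPM beside a wild type mean of 258 CPM, and replicates 3 and 4 of SKN-1t[DNDD] sit lower than replicates 1 and 2 in every gene.

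In SKN-1t[DNDD] against wild type animals, all 7 alpha subunits rose, with estimates above 2-fold. The 2-fold threshold, that is a log2 fold change beyond 1 together with an adjusted p under 0.01, was met upwards by 7 of 7 alpha subunits and by 3.44% of the 14400 genes tested. *pas-5* rose most, 3.36-fold, or 1.75 on the log2 scale (standard error 0.156, adjusted p = 0.000206 by edgeR's quasi-likelihood test, Benjamini-Hochberg adjusted over all genes). *pas-3* followed with a log2 fold change of 1.45 and *pas-2* with 1.43. *pas-4* rose least, 2.36-fold, or 1.24 on the log2 scale (standard error 0.133, adjusted p = 0.000412 in edgeR). The rest lay close together, at 2.62-fold for *pas-7*, 2.58-fold for *pas-6* and 2.52-fold for *pas-1*.

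The 7 log2 fold changes had a median of 1.39, where the median over all genes tested was 0.0432. Ranked by log2 fold change from the highest down, *pas-5* was in place 620 of 14400 and *pas-4* in place 1745, where the rank takes the estimates of all genes, called or not. The lowest SKN-1t[DNDD] sample exceeded the highest wild type sample in all 7 genes, by 1.87 times in *pas-4* to 2.29 times in *pas-5*. Of the 14850 genes kept in the fit of 16 samples, 12.6% had all 4 SKN-1t[DNDD] samples above all wild type samples. A rise of more than 2-fold was also tested as such (glmTreat in edgeR). That test called 0 of 7 at an adjusted p below 0.01. The lowest adjusted p from glmTreat was 0.0103 for *pas-5* and the next 0.0293 for *pas-3*. All 7 had an unadjusted p below 0.05, but here and below the share of all genes at an unadjusted p is not given. The share of all genes called by glmTreat is not given either. The estimates were thus above 2-fold, but an excess over 2-fold was not resolved at that threshold.

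In SKN-1t[NDNN] against wild type animals, all 7 alpha subunits rose too, but about 2-fold. *pas-5* again rose most, 2.34-fold, or 1.23 on the log2 scale (standard error 0.0875, adjusted p = 4.75e-05 in edgeR), and *pas-6* rose least, 1.73-fold, or 0.79 on the log2 scale (standard error 0.103, adjusted p = 0.000713). With the 2-fold threshold, 4 of 7 were called higher (*pas-2*, *pas-3*, *pas-5* and *pas-7*), against 6.85% of the 14310 genes tested. These calls depended on the fit. RLE scaling, DESeq2 and no filter each gave 3 of 7, the fit of 16 samples 2 of 7, and replicates 3 and 4 only 1 of 7. The test of a rise beyond 2-fold gave 0 of 7 (glmTreat in edgeR). There *pas-5* had the lowest adjusted p, 0.0730, and 2 of 7 had an unadjusted p below 0.05. For these other fits the share of all genes called is not given, so their counts lack that background. With a lower threshold, a change beyond 1.5-fold at an adjusted p under 0.05, all 7 were called, against 14.4% of genes. The 3 subunits between these thresholds were *pas-1* at 1.90-fold, *pas-4* at 1.78-fold and *pas-6* at 1.73-fold.

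The median of the 7 log2 fold changes in SKN-1t[NDNN] was 1.02, and that of all genes tested 0.0773. All SKN-1t[NDNN] samples were above all wild type samples in 7 of 7 genes, against 15.9% of all genes. The call of *pas-3*, at a log2 fold change of 1.02, sat at the 2-fold line, and it fell to 0.96 with RLE scaling and to 0.93 without SKN-1t[NDNN] replicate 1. Without that replicate 2 of 7 passed the 2-fold threshold and all 7 still passed the lower one. The share of all genes called without that replicate is not given.

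In SKN-1t[NNNN] against wild type animals, none of the 7 alpha subunits was called higher at either threshold, against 7.03% of the 14192 genes tested at the 2-fold threshold and 14.3% at the lower one. No subunit passed an adjusted p of 0.05 in edgeR, and 1 of 7, *pas-6*, had an unadjusted p below 0.05. For *pas-6* the log2 fold change was -0.27, with a 95% interval from -0.49 to -0.041 (standard error 0.0986, adjusted p = 0.0647 in edgeR). The other intervals included 0 and reached at most 0.18, the upper limit for *pas-2*, whose log2 fold change was 0.0036 with a lower limit of -0.18. The intervals of all 7 thus left out a rise of 1.5-fold.

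On the CPM scale of the 16 samples, 5 of 7 subunits had all SKN-1t[NNNN] samples below all wild type samples, as had 21.9% of all genes, and *pas-2* and *pas-5* overlapped. As a share of all counted reads, without scaling, the 7 genes together took 0.138% ± 0.00914 in SKN-1t[NNNN] and 0.142% ± 0.00838 in wild type animals (SD, n = 4 each), and these ranges overlapped. The same share was 0.455% ± 0.0611 in SKN-1t[DNDD] and 0.306% ± 0.0115 in SKN-1t[NDNN] animals (SD, n = 4 each). Whether SKN-1t[NNNN] animals had less of this RNA than the wild type depended on the scaling and test. The median of the 7 log2 fold changes was -0.14 in the fit of 8 samples and -0.25 in the fit of 16, where the median over all genes also moved, by -0.117. The count of subunits lower at an adjusted p below 0.05 was 0 in the fit of 8 samples, where 17.1% of all genes were lower by that rule. It was 2 in the fit of 16, against 21.5% of all genes, and 3 with DESeq2, against 20.8% of all genes.

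**Figure D2:**
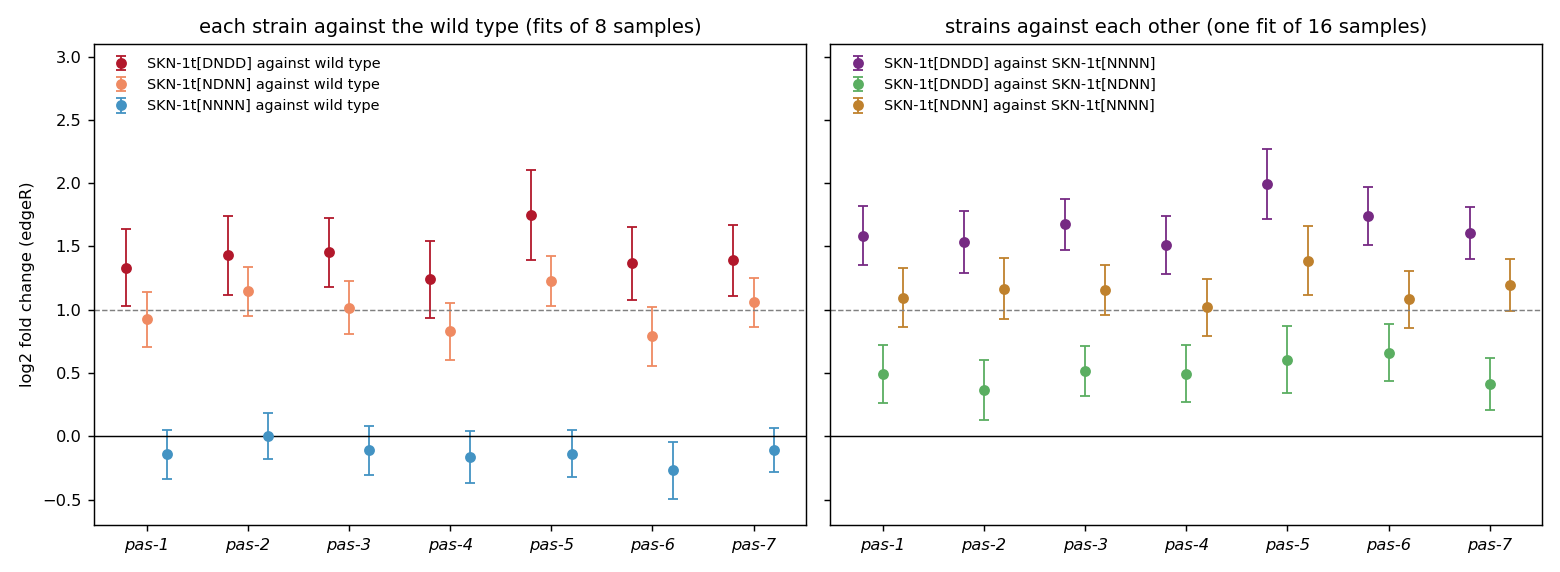
Log2 fold changes from edgeR (vertical axis) for *pas-1* to *pas-7*, with each strain against the wild type on the left and strains against each other on the right. Points are estimates, bars are 95% intervals and the dashed line marks 2-fold. Estimates for SKN-1t[DNDD] run from 1.24 to 1.75 and for SKN-1t[NDNN] from 0.79 to 1.23 against the wild type, while those for SKN-1t[NNNN] lie at or below 0.0036.

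The strains were compared with each other directly, since the comparisons above share the wild type samples. SKN-1t[DNDD] exceeded SKN-1t[NNNN] animals in all 7 alpha subunits, by a log2 fold change of 1.51 in *pas-4* to 1.99 in *pas-5*, with adjusted p from 7.20e-08 to 5.03e-07 in edgeR. Direct comparisons were called at an adjusted p under 0.05 without a fold threshold. All 7 were called, and 7.68% of the 14850 genes tested were higher by that rule. *pas-5* was 3.98-fold higher and *pas-4* 2.85-fold. The median of the 7 was 1.61, and that of all genes 0.0216. No SKN-1t[DNDD] sample was within 2-fold of an SKN-1t[NNNN] sample in any of the 7 genes, the closest being *pas-2* at 2.02 times. All SKN-1t[DNDD] samples were above all SKN-1t[NNNN] samples in 7 of 7, as in 8.12% of all genes.

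SKN-1t[NDNN], which differs from SKN-1t[NNNN] at a single site, exceeded it in all 7 alpha subunits as well. The log2 fold changes ran from 1.02 in *pas-4* (2.03-fold) to 1.39 in *pas-5* (2.62-fold), with adjusted p from 1.10e-05 to 5.12e-05 in edgeR. Few genes differed between these 2 strains, with 0.781% of all genes called higher, or 116 of 14850. By log2 fold change, *pas-5* was in place 282 and *pas-4* in place 510. All SKN-1t[NDNN] samples were above all SKN-1t[NNNN] samples in 7 of 7, against 4.67% of all genes. With replicates 3 and 4 only, 0 of 7 were called in edgeR, with adjusted p from 0.0615 to 0.0852 and all 7 at an unadjusted p below 0.05. Estimates in that fit were still positive, from 0.88 to 1.29 on the log2 scale, and centred on a median of 1.08. How many of all genes that fit called is not given, so its 0 of 7 lacks that background.

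SKN-1t[DNDD] exceeded SKN-1t[NDNN] animals by less, from 1.29-fold to 1.58-fold. The call was made for 6 of 7 alpha subunits, against 0.747% of all genes. *pas-6* had an estimate of 0.66 on the log2 scale (standard error 0.105, adjusted p = 0.00522 in edgeR) and *pas-5* one of 0.61 (standard error 0.125, adjusted p = 0.0252). *pas-3*, *pas-4*, *pas-1* and *pas-7* lay between 0.41 and 0.52, with adjusted p from 0.0119 to 0.0440. *pas-2* was not called, at 0.37 (standard error 0.111, adjusted p = 0.114, 95% interval 0.13 to 0.61). The samples of these strains did not overlap in 6 of 7 genes, against 3.33% of all genes. The estimates of *pas-6* and *pas-5* lay within a standard error of each other, so their order was not resolved.

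This difference depended on the samples used. With the replicate number as a block all 7 were called, with *pas-2* at an adjusted p of 0.0290, and the share of all genes called rose to 14.8%. In a fit of the 8 samples of these strains alone 0 of 7 were called, with adjusted p from 0.0610 to 0.266 in edgeR. All 7 had an unadjusted p below 0.05 there, a level whose share of all genes is not given here. The count dropped to 3 without SKN-1t[DNDD] replicate 1, SKN-1t[NDNN] replicate 1 or SKN-1t[NDNN] replicate 3, and to 2 without SKN-1t[DNDD] replicate 2, SKN-1t[NDNN] replicate 2 or SKN-1t[NDNN] replicate 4. Without SKN-1t[DNDD] replicate 4 all 7 were called. In each of these fits all 7 estimates stayed positive. For the fit of 8 samples and those without a sample, the share of all genes called is not given, so their counts lack that background.

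Replicates of SKN-1t[DNDD] animals spread more than those of the other groups. The coefficient of variation of the 4 samples was 12.5% for *pas-3* to 20.3% for *pas-5* in SKN-1t[DNDD] animals. It was 4.92% to 7.71% in SKN-1t[NDNN] animals, 3.76% to 8.20% in SKN-1t[NNNN] animals and 5.89% to 10.2% in the wild type. The 7 subunits moved together in this. As the mean of their log2 CPM minus that of the wild type group, SKN-1t[DNDD] replicates stood at 1.61, 1.56, 1.31 and 1.14, SKN-1t[NDNN] replicates at 1.01, 0.91, 0.86 and 0.86, and SKN-1t[NNNN] replicates at -0.33, -0.22, -0.21 and -0.23. Wild type replicates lay at 0.023, 0.12, -0.15 and 0.015 on the same scale.

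SKN-1t[DNDD] replicate 4, the lowest of its group in all 7 genes, also had the highest summed germline, oocyte and sperm markers of all samples, at 722, 209 and 133 CPM. SKN-1t[NNNN] replicate 4 had the next highest germline sum, 575 CPM, and was the lowest of its group in none of the 7 genes. The part of these markers in alpha subunit RNA was not tested. Without SKN-1t[DNDD] replicate 4, all 7 subunits were still called against the wild type, and their median log2 fold change was 1.47. The share of all genes called without that sample is not given. Taken over replicates 1 and 2 and then over replicates 3 and 4, the mean difference of the 7 in log2 CPM was 1.51 and 1.29 for SKN-1t[DNDD] against the wild type and 0.89 and 0.93 for SKN-1t[NDNN] against the wild type. In SKN-1t[DNDD] against SKN-1t[NDNN] animals it was 0.62 and 0.37. In each of these 3 comparisons, the first-named strain was higher in all 4 pairs of same-numbered samples for 7 of 7 genes.

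**Figure D3:**
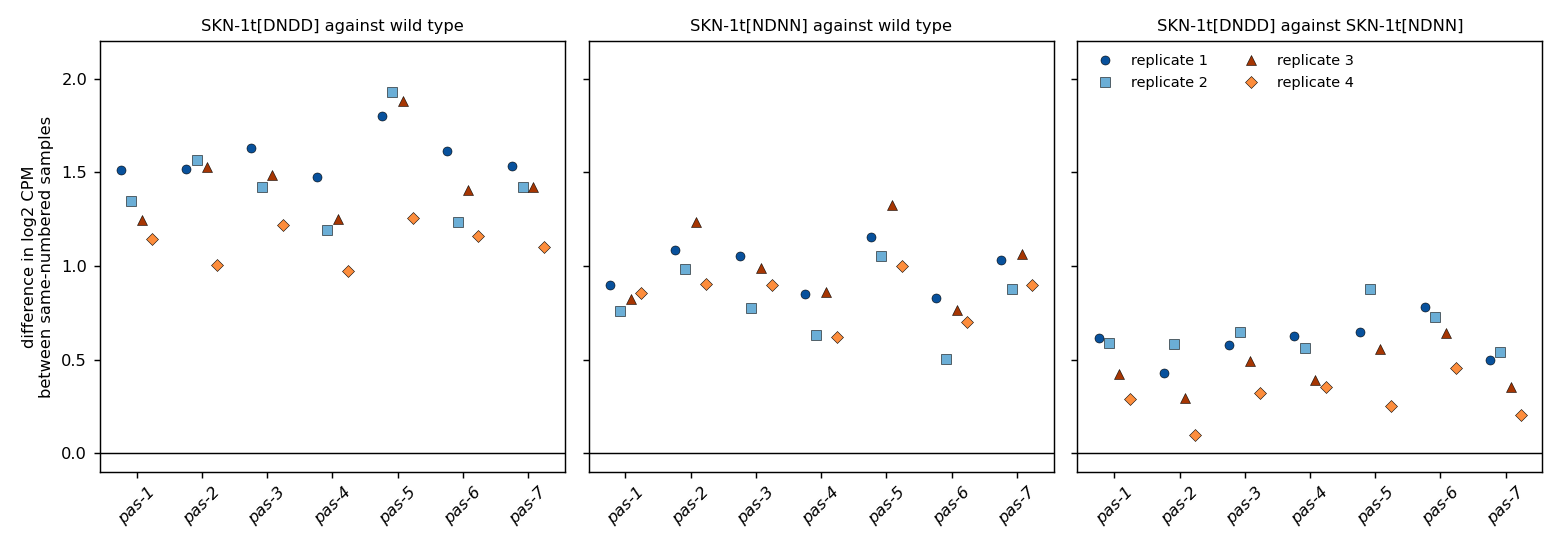
Difference in log2 CPM between samples with the same replicate number (vertical axis) for each alpha subunit, in 3 comparisons, with marker shapes for the replicate number. All points lie above 0, and in the right panel replicate 4 gives the smallest difference in each gene, down to 0.099 in *pas-2*.

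The subunits meet in equal numbers in a ring, so their RNA levels were also compared with each other, per kilobase of the gene length listed with the counts (RPKM). *pas-5* was the highest in SKN-1t[DNDD] at 1009 ± 205 RPKM, in SKN-1t[NDNN] at 663 ± 44.0 RPKM and in wild type animals at 302 ± 18.01 RPKM (SD, n = 4 each). In SKN-1t[NNNN] animals *pas-2*, at 256 ± 18.7 RPKM, and *pas-5*, at 253 ± 20.8 RPKM, could not be ordered beyond their spread (SD, n = 4 each). *pas-1* was the lowest in every group, at 474 ± 77.7 RPKM in SKN-1t[DNDD], 337 ± 24.8 RPKM in SKN-1t[NDNN], 158 ± 8.17 RPKM in SKN-1t[NNNN] and 189 ± 15.1 RPKM in wild type animals (SD, n = 4 each).

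From highest to lowest, the order was *pas-5*, *pas-2*, *pas-3*, *pas-6*, *pas-4*, *pas-7* and *pas-1* in SKN-1t[DNDD] and in wild type animals. The ranges of neighbours overlapped throughout in both. Within single samples, *pas-2* exceeded *pas-3* in 3 of 4 SKN-1t[DNDD] samples and *pas-4* exceeded *pas-7* in 2 of 4. In wild type animals *pas-6* exceeded *pas-4* in 3 of 4 samples. The other steps between neighbours held in all 4 samples of these groups. In SKN-1t[NDNN] animals *pas-7* and *pas-4* stood before *pas-6*, and the steps between *pas-2* and *pas-3* and between *pas-3* and *pas-7* exceeded the spread. In SKN-1t[NNNN] animals the steps between *pas-5* and *pas-3* and between *pas-7* and *pas-1* did. The highest subunit was 2.13 times the lowest in SKN-1t[DNDD], 1.97 times in SKN-1t[NDNN], 1.62 times in SKN-1t[NNNN] and 1.60 times in wild type animals.

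With *pas-5* left out, the ratio of the highest to the lowest subunit was 1.57 in SKN-1t[DNDD], 1.70 in SKN-1t[NDNN], 1.62 in SKN-1t[NNNN] and 1.46 in wild type animals. The share of *pas-5* in the reads per kilobase of the 7 genes was 21.9% ± 2.05 in SKN-1t[DNDD] and 20.6% ± 1.03 in SKN-1t[NDNN], against 17.8% ± 0.991 in SKN-1t[NNNN] and 17.9% ± 0.491 in wild type animals (SD, n = 4 each). The samples of the first pair of groups were all above those of the second. *pas-4* took a smaller share where *pas-5* took a larger one, at 11.97% in SKN-1t[DNDD] and 12.1% in SKN-1t[NDNN], against 13.5% in SKN-1t[NNNN] and 13.8% in wild type animals, also without overlap. These shares are given as a description, without a test, and since they sum to a fixed total a larger share of one gene lowers the others.

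The remaining subunits did not divide the groups this way. *pas-2* took 16.2% in SKN-1t[DNDD], 17.9% in SKN-1t[NDNN], 17.96% in SKN-1t[NNNN] and 16.4% in wild type animals, so SKN-1t[DNDD] stood with the wild type. *pas-6* took 13.3%, 11.9% and 12.7% in SKN-1t[DNDD], SKN-1t[NDNN] and SKN-1t[NNNN], and 14.0% in wild type animals. *pas-7* took 11.8% in SKN-1t[DNDD] and 12.6% in SKN-1t[NDNN] animals, and these ranges did not overlap. *pas-1* and *pas-3* showed overlapping ranges in each comparison. Between samples with the same replicate number, however, SKN-1t[NNNN] animals had the larger *pas-1* share in all 4 pairs of both comparisons with the other strains. The mean difference was -0.729 percentage points for SKN-1t[DNDD] and -0.589 for SKN-1t[NDNN], each minus SKN-1t[NNNN].

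**Figure D4:**
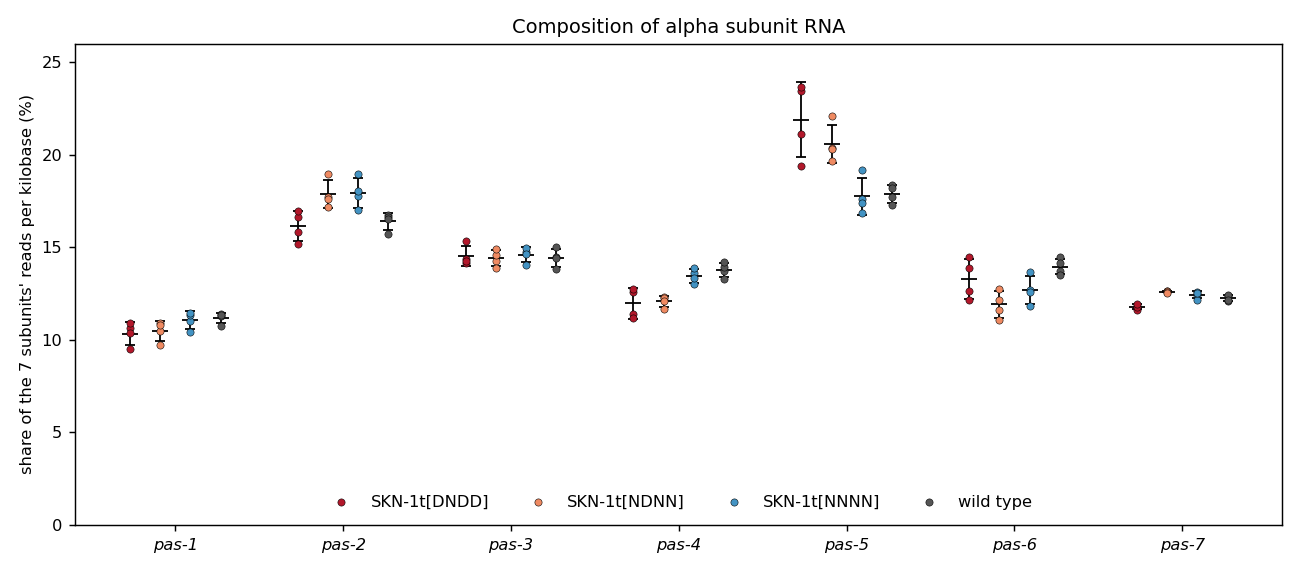
Share of each gene in the summed reads per kilobase of the 7 alpha subunits (vertical axis, percent) in SKN-1t[DNDD], SKN-1t[NDNN], SKN-1t[NNNN] and wild type samples. Points are samples and bars are mean ± SD (n = 4). The *pas-5* share is higher in both strains with Asn to Asp changes, at means of 21.9% and 20.6%, than in SKN-1t[NNNN] at 17.8% and the wild type at 17.9%.

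The other proteasome subunits were counted in 3 lists, the 7 beta subunits of the core, the 6 ATPases of the 19S particle that unfold substrates, and 12 other 19S subunits. In SKN-1t[DNDD] against wild type animals, 7 of 7 beta subunits, 5 of 6 ATPases and 9 of 12 other subunits passed the 2-fold threshold, and all 25 passed the lower one, met by 11.8% of all genes. Their median log2 fold changes were 1.35, 1.22 and 1.13, beside 1.39 for the alpha subunits. Among the beta subunits *pbs-4* changed most, by 1.51, and *pbs-5*, the counterpart of the subunit with the chymotrypsin-like activity, least, by 1.19. The ATPase genes ran from *rpt-4* at 1.34 to *rpt-6* at 0.93, and the other 19S genes from *rpn-8*, a lid subunit, at 1.39 to *rpn-1*, a large scaffold of the base, at 0.98. The highest value in these lists was thus below that of *pas-5*, 1.75, and no test was made of the difference between lists.

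In SKN-1t[NDNN] against wild type animals, 3 of 7 beta subunits, 1 of 6 ATPases and 2 of 12 other subunits passed the 2-fold threshold, beside 4 of 7 alpha subunits. At the lower threshold the counts were 7, 5 and 12, beside 7 alpha subunits. Median log2 fold changes were 0.92, 0.88 and 0.83, beside 1.02 for the alpha subunits. In SKN-1t[NNNN] against wild type animals none of the 25 was called higher, and 2 beta subunits and 1 ATPase were lower at an adjusted p below 0.05 in edgeR, met by 17.1% of all genes. In SKN-1t[DNDD] against SKN-1t[NDNN] animals, 6 of 7 beta subunits, 2 of 6 ATPases and 2 of 12 other subunits were called higher, beside 6 of 7 alpha subunits.

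**Figure D5:**
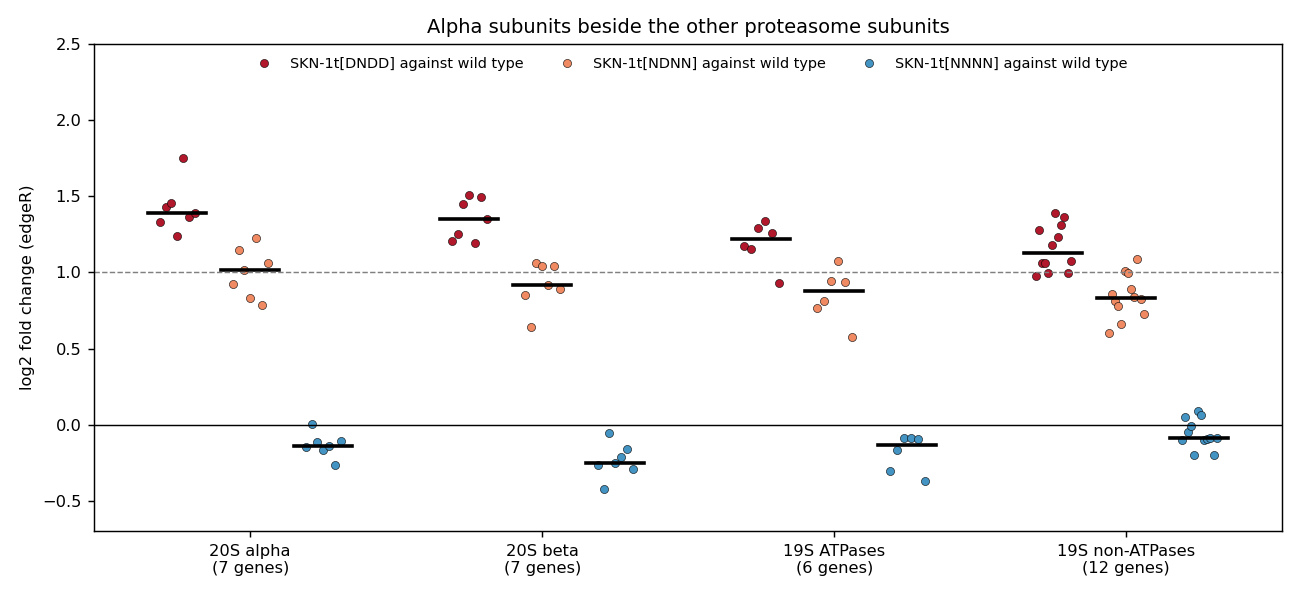
Log2 fold change from edgeR (vertical axis) of each proteasome gene in SKN-1t[DNDD], SKN-1t[NDNN] and SKN-1t[NNNN] against the wild type, in 4 lists of subunits. Points are genes, black bars are medians of a list and the dashed line marks 2-fold. Medians in SKN-1t[DNDD] are 1.39 for alpha subunits, 1.35 for beta subunits, 1.22 for 19S ATPases and 1.13 for other 19S subunits.

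Genes with the profile most like that of the alpha subunits were sought among 8028 genes with a mean of at least 10 CPM. Likeness was the root mean square difference over the 16 samples between a gene's log2 CPM, taken relative to its wild type mean, and the mean profile of the 7 alpha subunits. The median gene differed by 0.99 on this log2 scale. The closest were *pbs-3* at 0.057, *rpt-4* at 0.068, *pbs-6* at 0.081, *pbs-4* and *rpn-11* at 0.098, Y57E12AL.6 at 0.103, *rpt-3* and *rpn-8* at 0.114, *pbs-7* at 0.117 and *rpn-9* at 0.119. Of these 10 genes, 9 belonged to the 3 lists, as did 15 of the closest 20. Y57E12AL.6 is the exception, and its mean log2 CPM was above that of the wild type by 1.48 in SKN-1t[DNDD] and 0.84 in SKN-1t[NDNN] and differed by -0.33 in SKN-1t[NNNN]. The members themselves differed from their mean by 0.039 in *pas-7* and 0.042 in *pas-3* up to 0.212 in *pas-5*, so all 10 genes named were closer to the mean profile than *pas-5* was.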

How the data were processed

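The authors prepared stranded mRNA libraries from 16 samples, aligned paired reads to WBcel235 with STAR 2.7.7a, and deposited raw counts per gene with a gene length. The counts were analysed as deposited, with R 4.3.3, edgeR 4.0.16, DESeq2 1.42.0, Python 3.11.15 and matplotlib 3.10.9. A separate fit of 8 samples set each strain against the wild type, after the study's methods: filterByExpr (minimum count 10, minimum total 15), TMM scaling, glmQLFit with legacy quasi-dispersions and glmQLFTest, with Benjamini-Hochberg adjustment over all genes tested. Thresholds were a log2 fold change of 1 with an adjusted p below 0.01, and about 1.5-fold with 0.05. Direct comparisons of strains used a joint fit of 16 samples. The standard error is the log2 fold change divided by the root of F. Log2 CPM used a prior count of 2. For SKN-1t[NNNN] and SKN-1t[DNDD] against the wild type and against each other, fits were tested on simulated counts. The simulation gave all genes the same spread and no shifts shared by a sample's genes. It thus does not cover the replicate differences seen here.

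All 7 genes passed the filter in every fit. The named genes are these 7, the extremes of each proteasome list in SKN-1t[DNDD] against the wild type, *skn-1*, and the 10 genes with the closest profile. The members and lists were chosen with earlier results of these data known. Coordinates come from the Ensembl annotation of WBcel235, in which 19066 of the 19122 identifiers were found. Same-numbered samples deviated together: after group means were removed, log2 CPM over 14850 genes correlated between them with r of 0.516 to 0.795 for SKN-1t[DNDD] and SKN-1t[NDNN], 0.184 to 0.766 for SKN-1t[DNDD] and SKN-1t[NNNN], 0.251 to 0.788 for SKN-1t[NDNN] and SKN-1t[NNNN], 0.462 to 0.531 for SKN-1t[DNDD] and the wild type, 0.288 to 0.410 for SKN-1t[NDNN] and the wild type, and 0.0626 to 0.552 for SKN-1t[NNNN] and the wild type. Samples with different numbers could correlate as much or more. SKN-1t[DNDD] replicate 2 had r of 0.560 with SKN-1t[NNNN] replicate 1, whose r with SKN-1t[DNDD] replicate 1 was 0.184. SKN-1t[NDNN] replicate 1 had r of 0.634 with SKN-1t[NNNN] replicate 2 and 0.603 with its replicate 1. The r values thus do not identify pairs. Same-numbered samples reached a minimum of 0.1 in every pair of all comparisons but the last, where 1 of 4 pairs was below it. The main fits held no block, and the replicate block rests on the numbers in the labels. Promoter and protein sequences were not used here.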

Additional observations from a re-analysis of the deposited data

Results flagged for a closer look

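For each alpha subunit, the lowest or highest of the 4 samples of a group was set against the other samples of that group by Dixon's ratio, the gap to the nearest sample over the group's range, at its 95% critical value. Of 28 combinations of gene and group, 2 passed, where chance gives about 1 in 20. The combinations are not independent, since the subunits moved together across samples, so this rate is no test of the count. *pas-2* was low in wild type replicate 3, at 224.6 CPM with the nearest sample at 250.2 CPM (ratio 0.849). *pas-7* was low in SKN-1t[NNNN] replicate 1, at 165.6 CPM with the nearest sample at 178.3 CPM (ratio 0.838). Both samples were the lowest of their group in every alpha subunit.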

How the results depend on the processing

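Every alternative left the estimates for SKN-1t[DNDD] and SKN-1t[NDNN] against the wild type and against SKN-1t[NNNN] positive in all 7 alpha subunits, as were those for SKN-1t[DNDD] against SKN-1t[NDNN]. Of the counts and medians reported, 161 recomputed values stayed within the limits set and 12 moved, and when single samples were left out 159 stayed and 9 moved. The cause of a move was not tested.

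For SKN-1t[NNNN] against the wild type, the median of the 7 was -0.25 in the fit of 16 samples, -0.27 with replicates 1 and 2 only, and -0.23 to -0.097 with single samples left out. The log2 fold change of *pas-2*, 0.0036, became negative with RLE scaling (-0.073), upper-quartile scaling (-0.022), DESeq2 (-0.072), no filter (-0.056), the fit of 16 samples (-0.11) and replicates 1 and 2 only (-0.11), and ran from -0.095 to 0.043 with single samples left out. For SKN-1t[NDNN] against the wild type, the count past the 2-fold threshold was 2 in the fit of 16 samples, 0 with glmTreat, 1 with replicates 3 and 4 only, and 2 to 4 with single samples left out. The median was 0.93 in the fit of 16 samples and 0.93 to 1.05 with single samples left out. For SKN-1t[DNDD] against the wild type the count was 0 with glmTreat. For SKN-1t[DNDD] against SKN-1t[NDNN] the count was 0 in the fit of 8 samples, 1 with replicates 1 to 3 of every group, 0 with replicates 3 and 4 only, where 6 had an unadjusted p below 0.05 in edgeR, and 2 to 7 with single samples left out. In SKN-1t[NDNN] against SKN-1t[NNNN] animals the count was 0 with replicates 3 and 4 only (edgeR adjusted p 0.0615 to 0.0852, all 7 with an unadjusted p below 0.05), where the median was 1.08. The fits of some replicates only were chosen after seeing the data. For the counts of this paragraph, including those at an unadjusted p, the share of all genes is not given. Upper-quartile scaling moved the median of all genes in SKN-1t[DNDD] against the wild type by 0.102.

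With the replicate block, *pas-2* in SKN-1t[DNDD] against SKN-1t[NDNN] had a log2 fold change of 0.36 and was called, and the block changed no other call of the 7. Between SKN-1t[NNNN] and the wild type, where same-numbered samples of 3 of 4 replicate numbers correlated by more than 0.1 and the other pair by 0.0626, the block also gave 0 of 7 called.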
